A study of Homo sapiens with 6 samples.

Results

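The genes described here are 36 genes of mitotic entry, the spindle and its checkpoint, given as a list of G2/M and mitosis genes and found in the count table by gene symbol. All 36 were found among the 63140 genes of the table, and all 36 were among the 17427 genes with enough counts to be tested. They fall into 7 roles: 10 kinases, phosphatases, cyclins and subunits of mitotic entry, 3 chromosomal passenger proteins, 5 spindle checkpoint proteins, 5 centromere and kinetochore proteins, 7 motors and microtubule binders, 4 genes around the anaphase promoting complex, and 2 genes of mitotic chromosome structure. The samples were HEK293T cells, a line of human embryonic kidney origin, transfected with a miR-34a duplex (3 libraries) or with the AllStars negative control of Qiagen (3 libraries). RNA was taken 18 h after transfection, and the labels name no synchronisation of the cells. The control is called an siRNA in one place of the labels and a miRNA in another, and the amount of duplex is not given in the sources used here. HEK293T cells carry the SV40 large T antigen and adenovirus E1 genes, whose proteins bind p53 and the RB family, in both groups. The 3 libraries of a group are described as biological replicates, and p-values set the difference between the groups against the spread between these libraries.

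Cells enter mitosis when CDK1 bound to cyclin B is freed of inhibitory phosphates by CDC25 phosphatases, with PLK1 and the Aurora kinases acting beside it. The spindle checkpoint then holds the anaphase promoting complex until kinetochores are attached, after which separase cuts cohesin and the cell divides. Transcripts of these genes are made mainly in G2 and mitosis, through promoters that carry a cell cycle homology region (CHR), bound by the MuvB complex with B-MYB and FOXM1, and CCAAT boxes, bound by NF-Y. miR-34a is made from a gene that p53 activates, and has been studied for lowering several cell cycle mRNAs by pairing of its seed with their 3′ UTRs.

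The miRNA and the sites its seed can pair with are shown first, since seed pairing is the main way in which a miRNA finds its targets. The mature miR-34a-5p of RefSeq is encoded on the minus strand at chr1:9151735-9151756 (GRCh38.p14), and bases 2 to 8, the seed, are in capitals.
hsa-miR-34a-5p: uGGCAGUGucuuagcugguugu
In the 3′ UTR of 1 transcript per gene (GENCODE release 29, GRCh38), 5 of the 36 genes held a match of 7 bases to the seed and none held an 8mer. The sites follow with the matched bases in capitals, read on the mRNA strand.
BIRC5: cccctcgggccaACTGCCAtcct
BUB3: ggtcttcacagcCACTGCCctgg
HMMR: tatttaattttaACTGCCAatcc
INCENP: agtgagtggttcCACTGCCtgga
PRC1: atggcctgccctACTGCCAaaga
The BUB3 and INCENP sites match CACTGCC (7mer-m8), and the BIRC5, HMMR and PRC1 sites match ACTGCCA (7mer-A1). All 5 lie in the last exon. The BIRC5 site is at chr17:78225494-78225500 on the plus strand in exon 5, the BUB3 site at chr10:123169503-123169509 on the plus strand in exon 8, and the HMMR site at chr5:163491269-163491275 on the plus strand in exon 18. The INCENP site is at chr11:62152499-62152505 on the plus strand in exon 19, and the PRC1 site at chr15:90966588-90966594 on the minus strand in exon 15. Counted from the stop codon they begin 1940 nt (BIRC5), 5668 nt (BUB3), 105 nt (HMMR), 523 nt (INCENP) and 537 nt (PRC1) downstream. Sites of 7 or 8 bases were thus present in 13.9% of the 36 genes, against 20.9% of the 12878 tested genes with a 3′ UTR of at least 50 nt, and 8mers in 0% against 5.24%. The 3′ UTRs of the 36 genes were short, with a median of 543 nt against 1044.5 nt. With any protein-coding transcript counted, NDC80 was a sixth gene with a site.

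Few genes of the set passed the test for a change with miR-34a, and most fitted changes were small. A gene that did not pass may still have changed. PLK1, the polo-like kinase of mitotic entry, fell to 0.866 of its control level, KIF23, the kinesin-6 motor of the central spindle, rose 1.16-fold, and the other 34 genes did not pass the test (edgeR quasi-likelihood test, adjusted p under 0.05 over all 17427 genes). That is 5.56% of the set, where the same test called 12.1% of all tested genes (6.7% lower and 5.38% higher) and 14% of the 14650 genes in the set's range of level. The median log2 fold change of the 36 genes was 0.06, with quartiles of -0.05 and 0.16 and a range of -0.38 to 0.22, beside a median of -0.004 over all tested genes. In these bulk samples, fewer or more cells in mitosis and less or more RNA per mitotic cell cannot be told apart.

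The precision behind these values was fairly even. For 25 of the 36 genes the whole 95% interval of the fold change lay between a rise of 25% and the equivalent fall, against 35.2% of all tested genes and 41.2% of those in the same range of level. All 25 were among the 34 that did not pass. For 35 of the 36 it lay within 1.5-fold either way, the exception being NUSAP1, against 64.3% of all tested genes and 75.5% of those in the same range of level. Since that range is wide, the intervals were not set against those of genes matched for level. At an unadjusted p under 0.05, 3 genes were lower (13.1% of all tested genes were) and 9 were higher (11.3% of all tested genes were). The libraries of the groups did not overlap for 3 genes that were lower with miR-34a (PLK1, CKS1B and NUSAP1), beside 14.2% of all tested genes. They did not overlap for 9 that were higher (AURKA, BUB1, TTK, CENPF, NUF2, KIF20A, KIF23, TPX2 and TOP2A), beside 13.1% of all tested genes. Either way that was 12 of the 36 genes, beside 27.3% of all tested genes and 30.3% of those in the same range of level.

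**Figure D1:**
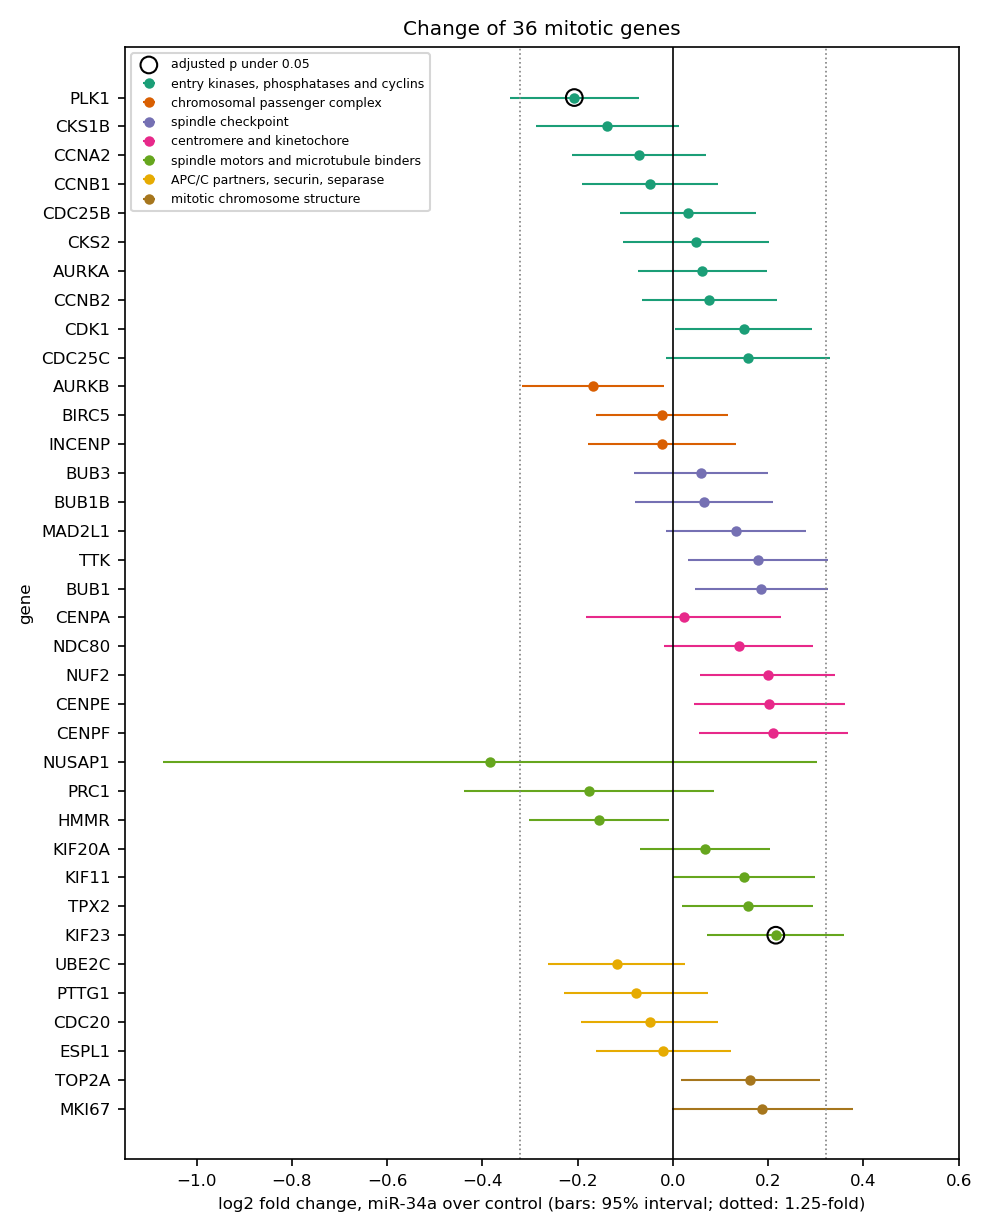
Log2 fold change of each of the 36 genes, miR-34a over control (x axis), with its 95% interval as a bar; genes run down the y axis and are coloured by role, dotted lines mark a rise of 25% and the equivalent fall, and open circles mark an adjusted p under 0.05. The points lie between -0.38 and 0.22, and the circled genes are PLK1 and KIF23.

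Library depth lay between 24728662 and 36650331 counts. The sum over the 36 genes, in CPM (read counts per 1000000 of the library total after TMM scaling), was 6617, 6617 and 6710 in the miR-34a libraries and 6414, 6005 and 6434 in the control libraries. All 3 miR-34a sums were above all 3 control sums and the lowest was control 2. The sum is not divided by length, so the genes with most reads weigh most in it. The largest were TOP2A, CENPF and MKI67, with means of 710, 587 and 511 CPM with miR-34a, against 635, 508 and 449 CPM in control. The separation of the sums is thus not a trait of the 36 genes as a whole. The median over the 36 genes of log2 CPM minus the gene's mean over the libraries did overlap between the groups. It was 0.047, 0.036 and -0.035 in the miR-34a libraries and -0.026, -0.052 and 0.006 in the control libraries. Control 2 held the lowest value of 16 of the 36 genes, and miR-34a 3 the lowest of 9. Conversely miR-34a 1 held the highest value of 12 genes and miR-34a 3 of 8. The sums of marker genes that follow are in CPM without TMM scaling. All 7 marker genes of HEK293T cells were detected, with summed levels of 627 to 660 CPM with miR-34a and 652 to 683 CPM in control. Markers of fibroblasts (2 of 5 tested) summed to 22.4 to 24.1 CPM with miR-34a and 22.2 to 29.6 CPM in control, with COL1A2 and DCN at 0. Markers of white blood cells (1 of 5 tested) summed to 1.83 to 2.62 CPM with miR-34a and 1.42 to 2.20 CPM in control, with CD3E at 0. Those of hepatocytes (0 of 3 tested) and mature kidney tubule (0 of 4 tested, UMOD, CDH16 and AQP2 at 0) reached at most 0.30 CPM with miR-34a and 0.426 CPM in control.

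**Figure D2:**
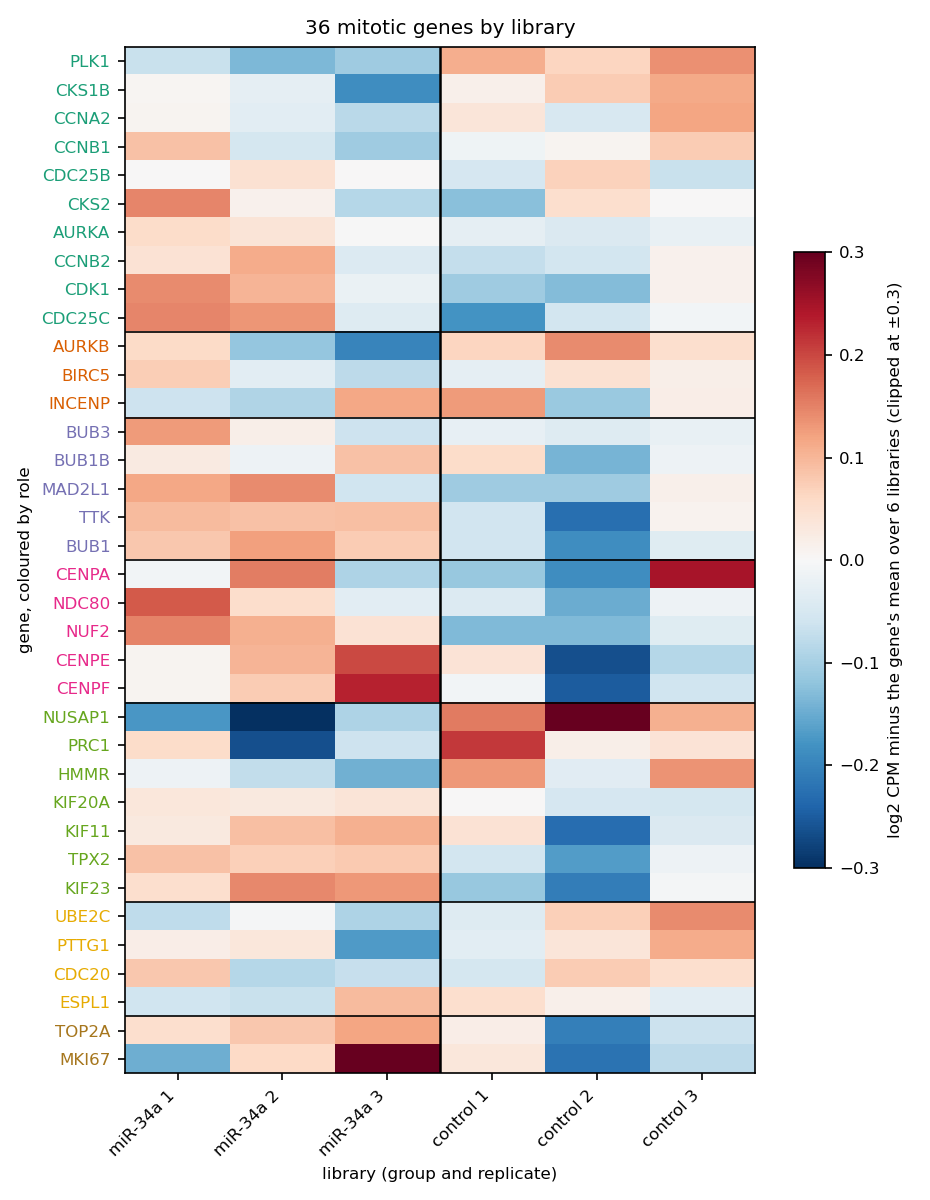
Level of each gene (rows, coloured and divided by role) in each library (columns, miR-34a left of the line and control right of it), as log2 CPM minus the gene's mean over the 6 libraries, clipped at 0.3 either way. The checkpoint and kinetochore rows are redder with miR-34a, the control 2 column is bluest for the long transcripts, and many other rows show no division at the line.

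Among the 10 genes of mitotic entry, 1 fell, none rose and 9 did not pass, with a median log2 fold change of 0.04. PLK1 (ENSG00000166851, chr16:23677656-23690367, plus strand) phosphorylates CDC25C and WEE1 at entry and later acts at centrosomes, kinetochores and the midbody. It had 163, 155 and 158 CPM with miR-34a, against 184, 178 and 188 CPM in control. The highest miR-34a library lay below the lowest control library. Its log2 fold change was -0.21 ± 0.066 (SE), with an interval of -0.34 to -0.07, and means of 159 ± 3.78 CPM with miR-34a and 183 ± 4.70 CPM in control (SD, n = 3 each; edgeR adjusted p = 0.039). The call was close to the threshold: with 1 library left out it held only without control 2 (adjusted p = 0.0436), and without any other it lay between 0.0651 and 0.185 by the same edgeR test. PLK1 shares 11.6% of its exonic length with an untested antisense gene and 0.88% with ERN2, whose reads these unstranded libraries cannot separate.

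CDK1, the kinase that drives entry, had 209, 204 and 187 CPM with miR-34a, against 176, 173 and 192 CPM in control, with 1 control library inside the miR-34a range. Its log2 fold change of 0.15 missed the threshold (edgeR adjusted p = 0.187). CCNB1, cyclin B1, its partner, had 279.9, 254 and 245 CPM with miR-34a, against 261, 265 and 278 CPM in control. The groups overlapped throughout, with a log2 fold change of -0.05 ± 0.069 (edgeR adjusted p = 0.747). Cyclin B2 (CCNB2, 0.08) and cyclin A2 (CCNA2, -0.07) had log2 fold changes that did not pass either.

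The phosphatase CDC25C had 33.1, 32.8 and 29.2 CPM with miR-34a, against 26.5, 28.8 and 29.8 CPM in control. Only the highest control library reached into the miR-34a range, and the log2 fold change of 0.16 ± 0.084 missed the threshold (edgeR adjusted p = 0.256). CDC25B, its paralogue, had a log2 fold change of 0.03. CKS2, a small CDK-binding subunit, had 126, 114 and 107 CPM with miR-34a, against 104, 117 and 114 CPM in control, with a log2 fold change of 0.05 ± 0.074 (edgeR adjusted p = 0.757). For its relative CKS1B the groups did not overlap, at 70.4, 68.8 and 61.6 CPM with miR-34a against 70.8, 73.8 and 75.9 CPM in control. The gap between the nearest libraries was small, and the log2 fold change of -0.14 missed the threshold (edgeR adjusted p = 0.252). Aurora A (AURKA), which matures centrosomes and activates PLK1, had 135, 134 and 129.9 CPM with miR-34a, against 128, 126 and 128 CPM in control. The groups did not overlap, yet the log2 fold change was 0.06 (edgeR adjusted p = 0.628).

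None of the 3 chromosomal passenger genes passed the test, and all 3 values were below 0, with a median log2 fold change of -0.02. Aurora B (AURKB), the kinase of the complex, had 170.4, 151 and 143 CPM with miR-34a, against 171, 181 and 169.5 CPM in control. Of the miR-34a libraries only the first reached the control range, and the log2 fold change was -0.17 (edgeR adjusted p = 0.144). Its interval of -0.32 to -0.02 lay below 0 before adjustment over genes. With 1 library left out, AURKB passed only without miR-34a 1 (edgeR adjusted p = 0.0486).

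The other two passenger genes carry the sites printed above. INCENP, the scaffold of the complex, had 122, 119.7 and 138 CPM with miR-34a, against 139, 118 and 129 CPM in control, with a log2 fold change of -0.02 ± 0.076 (edgeR adjusted p = 0.896). BIRC5, survivin, which docks the complex to the centromere, had 302, 280.4 and 272 CPM with miR-34a, against 281, 296 and 290.2 CPM in control, with a log2 fold change of -0.02 ± 0.067 (edgeR adjusted p = 0.882). In both genes the groups overlapped fully.

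None of the 5 spindle checkpoint genes passed, and all 5 values were above 0, with a median log2 fold change of 0.13. BUB1, the kinase that marks centromeres through histone H2A and recruits checkpoint proteins, had 222, 228 and 221 CPM with miR-34a, against 201, 184 and 204 CPM in control. Every miR-34a library was above every control library. The log2 fold change was 0.19 ± 0.067, with means of 224 ± 4.03 CPM with miR-34a and 197 ± 10.9 CPM in control (SD, n = 3 each; edgeR adjusted p = 0.0761). It passed in 2 of 7 alternatives with all 6 libraries, with scaling by library size only (adjusted p = 0.0375) and with the DESeq2 test (adjusted p = 0.0276), and the values over the 7 lay between 0.0276 and 0.169.

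TTK, known as MPS1, which starts checkpoint signalling at unattached kinetochores, had 133, 132 and 133 CPM with miR-34a, against 119.7, 106 and 125.3 CPM in control. The miR-34a libraries agreed closely and lay above all control libraries, with a log2 fold change of 0.18 (edgeR adjusted p = 0.109). BUB3, which brings BUB1 and BUBR1 to the kinetochore and holds a 7mer-m8 site, had 295, 273 and 259 CPM with miR-34a, against 265, 263 and 266 CPM in control. The fitted difference was 0.06 ± 0.068 on the log2 scale, on the side of higher levels with miR-34a (edgeR adjusted p = 0.668). MAD2L1 (0.13) and BUB1B (0.07), both parts of the complex that binds CDC20, had log2 fold changes that did not pass.

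The 5 centromere and kinetochore genes had the highest median of the roles of more than 2 genes, 0.20 on the log2 scale, with all 5 values above 0 and none past the threshold. Summed over the 5, the level was 957, 993 and 1063 CPM with miR-34a, against 928, 796 and 903 CPM in control, with control 2 the lowest by some way. CENPF made up the largest part of this sum. NUF2, a subunit of the NDC80 complex that grips microtubules, had 96.7, 94.0 and 89.9 CPM with miR-34a, against 79.6, 79.6 and 85.1 CPM in control. The groups did not overlap, and the log2 fold change was 0.20 ± 0.069 (edgeR adjusted p = 0.0593). NUF2 passed in 3 of the 7 alternatives with all 6 libraries, with adjusted p over the 7 between 0.0259 and 0.132. NDC80 itself, from the same complex, had a log2 fold change of 0.14 (edgeR adjusted p = 0.278).

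CENPF, a large protein of the outer kinetochore and a known marker of G2, had 548, 574 and 639.9 CPM with miR-34a, against 542, 459 and 523 CPM in control. The lowest miR-34a library was just above the highest control library, and the log2 fold change was 0.21 ± 0.076 (edgeR adjusted p = 0.0735). It passed in 3 of the 7 alternatives, whose adjusted p lay between 0.0186 and 0.133, and without control 1 (edgeR adjusted p = 0.0177). CENPE, the kinesin that carries chromosomes to the spindle equator, had 221, 236 and 253 CPM with miR-34a, against 227, 183 and 207 CPM in control. One pair of libraries overlapped, and the log2 fold change of 0.20 ± 0.077 (edgeR adjusted p = 0.0908) passed in 1 of the 7 alternatives, whose adjusted p lay between 0.0362 and 0.130, and without control 1 (edgeR adjusted p = 0.0109). CENPA, the histone H3 variant of the centromere, had a log2 fold change of 0.02 with a wide interval of -0.18 to 0.23.

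Among the 7 motors and microtubule binders, 1 rose, none fell and 6 did not pass, with a median log2 fold change of 0.07. KIF23 (MKLP1; ENSG00000137807, chr15:69414246-69448427, plus strand) forms centralspindlin with RACGAP1 and bundles the central spindle for cytokinesis. It had 165, 176 and 174 CPM with miR-34a, against 147, 138 and 158 CPM in control. The groups did not overlap. Its log2 fold change was 0.22 ± 0.070, the highest of the 36, with an interval of 0.07 to 0.36 and means of 172 ± 5.91 CPM with miR-34a and 148 ± 10.3 CPM in control (SD, n = 3 each; edgeR adjusted p = 0.043). With 1 library left out the KIF23 call held only without control 3 (adjusted p = 0.0394), and without any other it lay between 0.0513 and 0.181 by the same edgeR test. KIF23 shares 3.51% of its exonic length with the antisense gene KIF23-AS1, which had 1.01 CPM with miR-34a and 0.368 CPM in control.

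TPX2, which activates Aurora A and nucleates spindle microtubules, had 345, 341 and 343 CPM with miR-34a, against 313, 289 and 321 CPM in control. The groups did not overlap, and the log2 fold change of 0.16 missed the threshold (edgeR adjusted p = 0.142). KIF11, the motor that pushes spindle poles apart, had a log2 fold change of 0.15 (edgeR adjusted p = 0.206) and KIF20A, a kinesin of cytokinesis, of 0.07 (edgeR adjusted p = 0.592). HMMR, which binds microtubules at spindle poles and holds a 7mer-A1 site, had 99.7, 95.7 and 91.2 CPM with miR-34a, against 110.3, 98.3 and 110.6 CPM in control. Only the highest miR-34a library reached the control range. Its log2 fold change was -0.16 ± 0.071, with an interval of -0.30 to -0.01 (edgeR adjusted p = 0.174).

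The other two genes of this role were at low and uncertain levels. NUSAP1, which bundles spindle microtubules near chromatin, had 0.715, 0.651 and 0.757 CPM with miR-34a, against 0.900, 1.01 and 0.870 CPM in control. The groups did not overlap, but the log2 fold change of -0.38 ± 0.33, the lowest of the 36, had an interval of -1.07 to 0.30 (edgeR adjusted p = 0.538). PRC1, the crosslinker of the central spindle, which holds a 7mer-A1 site, had 8.50, 6.81 and 7.84 CPM with miR-34a, against 9.49, 8.29 and 8.42 CPM in control, with a log2 fold change of -0.18 ± 0.127 (edgeR adjusted p = 0.440). NUSAP1 shares 62.2% of its exonic length with a same-strand gene, ENSG00000285920, that was not tested. PRC1 shares 57.6% with ENSG00000284946, also on its strand, which had 16.4 CPM with miR-34a and 16.6 CPM in control. How reads over more than 1 gene were counted is not given in the sources used here, so the levels of these genes are uncertain. Smaller parts of exonic length are shared by BUB1B (10.2%, with BUB1B-PAK6), CCNA2 (9.08%, with EXOSC9), CDC25C (8.78%, with FAM53C), CENPA (6.96%, with SLC35F6) and HMMR (2.87%, with HMMR-AS1). KIF20A shares 3.34% with BRD8, which rose, and 1.72% with CDC23, which fell. No single pseudogene copy of the 36 genes held more than 0.156% of the counts of its parent gene, and all copies of a gene together held at most 0.184% (UBE2C).

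None of the 4 genes around the anaphase promoting complex passed, and all 4 values were below 0, with a median log2 fold change of -0.06. CDC20, the coactivator that the checkpoint holds, had 216, 192 and 194 CPM with miR-34a, against 196, 215 and 211 CPM in control. The groups overlapped, with a log2 fold change of -0.05 ± 0.070 (edgeR adjusted p = 0.743). UBE2C, the ubiquitin-conjugating enzyme of the complex, had a log2 fold change of -0.12 (edgeR adjusted p = 0.319). Securin (PTTG1, -0.08) and separase (ESPL1, -0.02), the inhibitor and the protease that cuts cohesin, were nearer to 0.

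Neither gene of chromosome structure passed, though both values were above 0. TOP2A, the topoisomerase that untangles sister chromatids, had 694, 709 and 727 CPM with miR-34a, against 680.2, 582 and 641 CPM in control. The groups did not overlap, with a log2 fold change of 0.16 (edgeR adjusted p = 0.149) that passed only without control 1 (edgeR adjusted p = 0.0403). MKI67, the Ki-67 protein that coats mitotic chromosomes, had 430.3, 496 and 607 CPM with miR-34a, against 488, 408 and 451 CPM in control. The first miR-34a library lay inside the control range and the third far above it, the widest spread of the 36 genes with miR-34a (coefficient of variation 17.5%). The fitted log2 fold change was 0.19 ± 0.092 (edgeR adjusted p = 0.210). MKI67 passed in 1 of the 7 alternatives with all 6 libraries, whose adjusted p lay between 0.0464 and 0.503, and its log2 fold change was 0.05 without miR-34a 3 and 0.30 without miR-34a 1. It also passed without miR-34a 1 (edgeR adjusted p = 0.0351) and without control 1 (edgeR adjusted p = 0.0476).

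Levels were compared between genes only per length, as CPM per kb of merged exons unless stated. CKS2 was the highest in both groups, at 189 CPM per kb with miR-34a and 182 CPM per kb in control. In control CCNB1 and CDC20 came next, with CCNB1 at 101 CPM per kb with miR-34a and 105 CPM per kb in control, and CDC20 at 98.5 CPM per kb with miR-34a and 102 CPM per kb in control. The lowest were NUSAP1, at 0.246 CPM per kb with miR-34a and 0.322 CPM per kb in control, PRC1, at 1.40 CPM per kb with miR-34a and 1.58 CPM per kb in control, and CDC25C, at 9.50 CPM per kb with miR-34a and 8.49 CPM per kb in control. CDC25C was thus the lowest gene whose exons are largely its own. With miR-34a, TOP2A came after CKS2, at 110.3 CPM per kb against 98.6 CPM per kb in control, where it was the fourth. The order at the top also depends on the length used: per kb of the chosen transcript, the control levels of UBE2C (147 CPM per kb) and AURKB (139 CPM per kb) came after CKS2 and before CCNB1 (124 CPM per kb) and CDC20 (117 CPM per kb). NUSAP1, PRC1 and CDC25C were the lowest with either length.

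**Figure D3:**
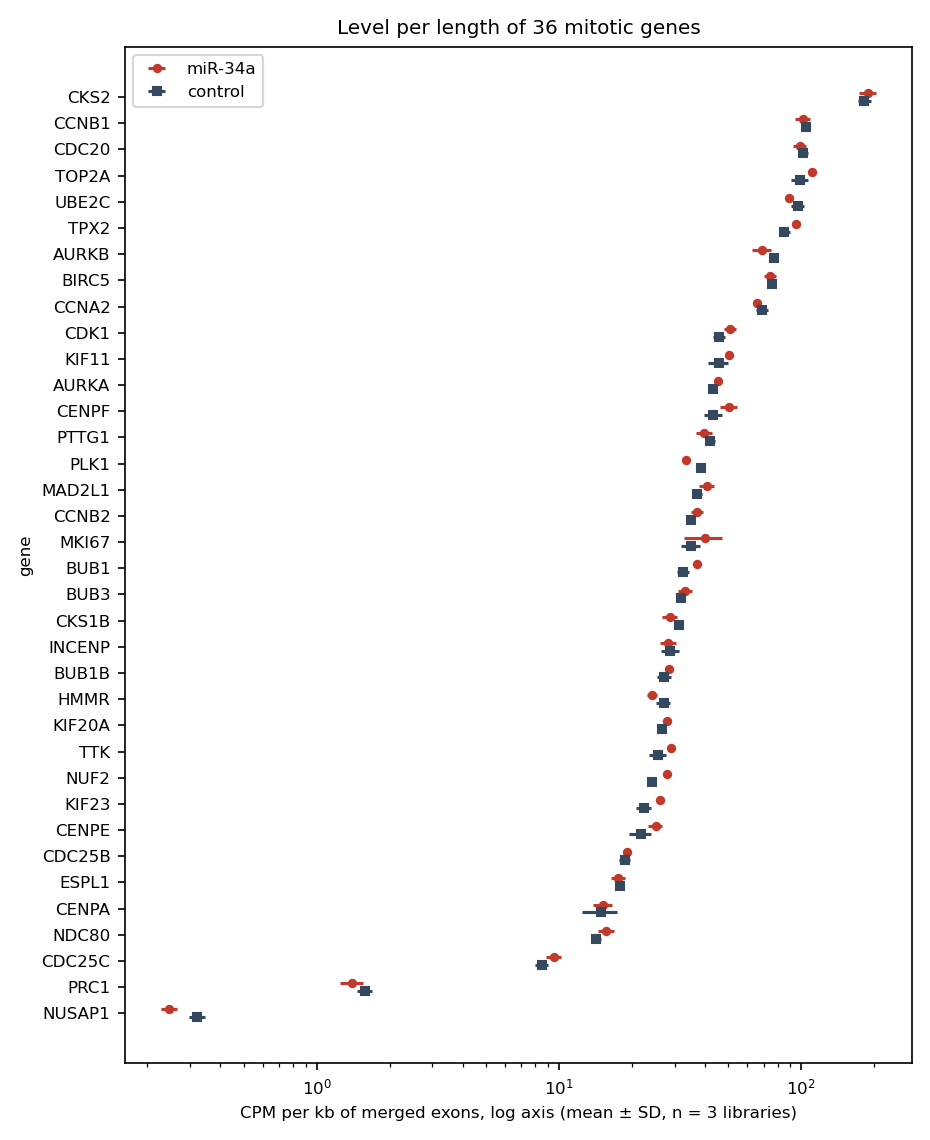
Level per length of each gene (y axis, sorted by the control level), in CPM per kb of merged exons on a log x axis, as the mean with a bar of 1 SD over 3 libraries, for miR-34a (circles) and control (squares). The pair of symbols of a gene nearly coincide along the whole range, which runs up to CKS2 at 189 CPM per kb with miR-34a and 182 CPM per kb in control.

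None of the 5 genes with a seed match of 7 bases passed the test, 4 of the 5 log2 fold changes were below 0, and their median was -0.02, beside 0.07 for the 31 genes without such a match. Over all tested genes with a 7mer or 8mer, 19.4% fell and the median log2 fold change was -0.08, against 0.01 for genes with none. That group is unlike the 5 genes, which hold only 7mers: it includes 675 genes with an 8mer, of which 27.7% fell, with a median of -0.14. HMMR and PRC1, with 7mer-A1 sites, had the lowest values of the 5, and BUB3, with a 7mer-m8 site, the highest. PLK1, the gene that fell, held no match, not even of 6 bases, in the 3′ UTR searched. Matches of only 6 bases were found in CCNA2, KIF11 and MKI67, whose log2 fold changes were -0.07, 0.15 and 0.19.

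The promoters are shown because the 36 genes share regulators at them. RefSeq promoter windows of GRCh38.p14, from 250 bases before to 50 after the start, were matched for 30 of the 36 genes; AURKA, BIRC5, BUB3, TPX2, TTK and UBE2C were not matched. The windows were searched on both strands for the CHR, as TTTGAA or TTTAAA, and for the CCAAT box. A CHR match was found in 25 of 30 windows (83.3%, against 24.3% of the 27305 windows of all genes) and a CCAAT match in 24 (80%, against 35.7%). Both were found in 21 (70%, against 9.49%). With only the 100 bases before the start and the 50 after it, both were found in 17 (56.7%, against 2.78%). TTTGAA was found in 21 windows and TTTAAA in 11, CCAAT occurred at least 2 times in 15, and a CHR match overlapped a CCAAT match only in MKI67, at 1 place. CDC25B and CDC25C had neither set of letters in the window. Only 1 window per gene was searched, so other starts of a gene were not covered. The CDC25C window (chr5:138338306-138338605, minus strand) lies at the upstream end of the gene's annotated span (chr5:138285265-138338355). The promoters of the gene that fell, the gene that rose and cyclin B1, which did neither, are printed from 5′ to 3′ in the direction of the gene, with the CHR and CCAAT matches in capitals.
PLK1, chr16:23678639-23678938, plus strand: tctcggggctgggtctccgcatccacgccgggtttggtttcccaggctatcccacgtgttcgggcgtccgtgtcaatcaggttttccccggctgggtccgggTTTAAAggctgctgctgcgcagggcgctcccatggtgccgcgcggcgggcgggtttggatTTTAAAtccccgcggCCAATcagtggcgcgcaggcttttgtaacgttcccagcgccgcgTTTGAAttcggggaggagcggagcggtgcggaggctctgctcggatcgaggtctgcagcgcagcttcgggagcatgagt
KIF23, chr15:69414099-69414398, plus strand: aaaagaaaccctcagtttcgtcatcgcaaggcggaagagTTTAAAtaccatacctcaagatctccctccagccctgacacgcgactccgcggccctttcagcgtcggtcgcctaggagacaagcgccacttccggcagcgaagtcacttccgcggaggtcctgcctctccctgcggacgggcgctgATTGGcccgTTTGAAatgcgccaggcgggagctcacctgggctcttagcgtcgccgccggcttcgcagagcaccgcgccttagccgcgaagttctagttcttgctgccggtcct
CCNB1, chr5:69166900-69167199, plus strand: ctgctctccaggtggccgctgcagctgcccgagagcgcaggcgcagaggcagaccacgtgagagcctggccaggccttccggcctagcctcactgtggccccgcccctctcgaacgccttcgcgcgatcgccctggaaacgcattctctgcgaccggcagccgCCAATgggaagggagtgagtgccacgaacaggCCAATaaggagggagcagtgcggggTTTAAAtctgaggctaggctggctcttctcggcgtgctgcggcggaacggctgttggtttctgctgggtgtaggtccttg
PLK1 has TTTGAA 29 bases before the start, CCAAT 73 bases before it, and TTTAAA 88 and 148 bases before it. KIF23 has TTTGAA 55 bases and a CCAAT box on the opposite strand (ATTGG) 64 bases before the start, with TTTAAA 211 bases before it. CCNB1 has TTTAAA 30 bases and CCAAT 55 and 87 bases before the start. All the printed windows held both a CHR and a CCAAT match. A relation of the motifs to the changes over the 30 windows was not tested.

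The values of the 36 genes were ordered by transcript length and base composition, as a description across genes, which are not independent replicates and share the same 6 libraries. Spearman's rho between log2 fold change and transcript length was 0.513 (Pearson's r on log2 length 0.484), and between log2 fold change and transcript GC content -0.502 (r -0.439), over 36 genes. Of the 18 longer transcripts (3010 to 12678 nt), 14 had a value above 0 and the median was 0.14. Of the 18 shorter ones (613 to 2797 nt), 8 were above 0 and the median was -0.04. CENPE, CENPF, TOP2A and MKI67 were among the long transcripts, and CKS1B, UBE2C and AURKB among the short. Across the 13473 tested protein-coding genes the rho was 0.197 for length and -0.388 for GC content, and across the 150 tested genes of the wider mitotic lists described last it was 0.425 for length and -0.63 for GC content. The relation to length over the 36 genes rested in part on single libraries: rho was 0.244 without miR-34a 3, 0.390 without control 2, 0.384 without control 3 and 0.633 without control 1. With the GC content and length trend of all genes subtracted, the median of the 36 genes was 0.05, with 25 above 0 and 11 below. The part of RNA quality or of library preparation in this order was not tested.

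**Figure D4:**
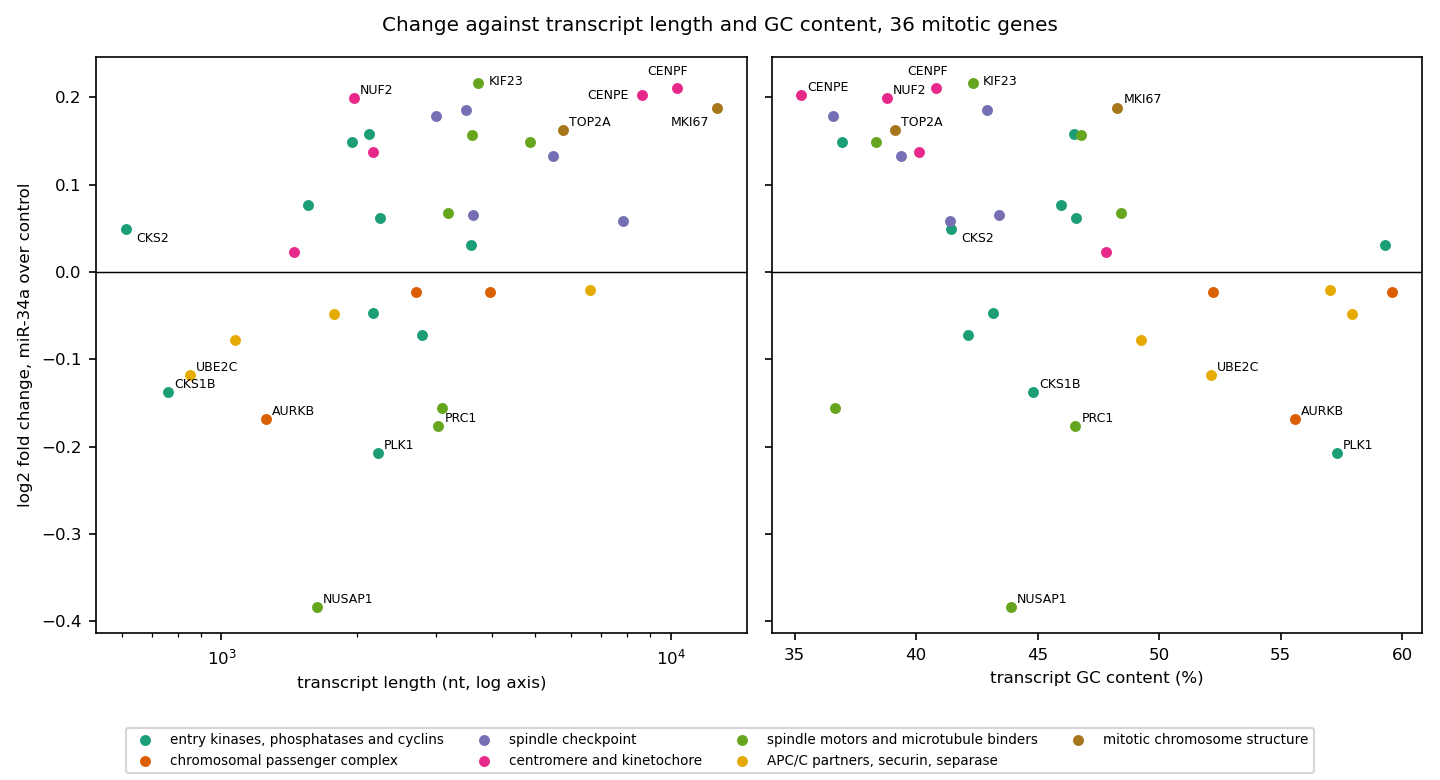
Log2 fold change, miR-34a over control (y axis), of the 36 genes against transcript length in nt on a log axis (left panel) and transcript GC content in percent (right panel), 1 point per gene, coloured by role. Long transcripts such as CENPF and MKI67 lie near 0.2 and short ones such as CKS1B, UBE2C and AURKB below 0, with Spearman's rho of 0.513 for length and -0.502 for GC content.

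Beside the 36 genes, 152 further genes in 10 lists of mitotic function were examined, of which 150 were tested (MAD1L1 and OIP5 were not). There, 12 fell and 21 rose, 22% in all, beside the 12.1% of all tested genes, with a median log2 fold change of 0.08. The lists were chosen with earlier results of these data known, so this share is not an independent observation. The difference between these lists and the 36 genes was not tested. In the lists that follow, all log2 fold changes are miR-34a over control, and adjusted p is that of the edgeR test over all genes. The counts of each list stand beside 6.7% lower and 5.38% higher over all tested genes.

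Of 10 genes of CDK1 inhibition and the Greatwall branch, 2 fell and 1 rose. ARPP19, which when phosphorylated by Greatwall inhibits the phosphatase that opposes CDK1, fell, with 125.2, 116 and 113 CPM with miR-34a, against 175, 159 and 169 CPM in control (-0.51, edgeR adjusted p = 1.07e-05). PKMYT1, a membrane-bound inhibitory kinase of CDK1, fell too (-0.39, edgeR adjusted p = 0.0011), and WEE1, the nuclear one, rose (0.22, edgeR adjusted p = 0.0398). The WEE1 call was lost when any library other than control 1 was left out (edgeR adjusted p = 0.0565 to 0.214). PKMYT1 shares 24.5% of its exonic length with PAQR4 on the other strand, which had a log2 fold change of -0.30 that did not pass. Of 13 other mitotic kinases and cofactors, 1 fell and 3 rose. NEK2, which separates centrosomes, rose (0.44, edgeR adjusted p = 1.18e-04), as did NEK7 (0.41), which acts in spindle assembly, and PBK (0.29), a mitotic kinase. The PBK call was lost without miR-34a 1 or miR-34a 2 (edgeR adjusted p = 0.0507 to 0.0525).

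Of 17 other subunits and regulators of the anaphase promoting complex, 2 fell and 2 rose. CDC23, a scaffold subunit, had 87.2, 86.9 and 80.3 CPM with miR-34a, against 131, 122 and 129 CPM in control. It fell by 0.58 on the log2 scale, with groups far apart (edgeR adjusted p = 1.15e-06). CDC27, another scaffold subunit, rose (0.29), and so did the small subunit ANAPC13 (0.34). With 1 transcript per gene, an 8mer, which none of the 36 genes has, was found in 4 genes of the wider lists. Of these, CDC23 and the kinetochore gene PMF1 fell. NEK6 (-0.10, edgeR adjusted p = 0.469) and STMN1 (-0.05, edgeR adjusted p = 0.774) did not pass. With any protein-coding transcript counted, ARPP19, which fell, and HAUS6 (0.09, edgeR adjusted p = 0.505), which did not pass, held an 8mer too. The sites of CDC23 and PMF1 are shown for comparison with those above, the matched bases in capitals.
CDC23: gttactggtctcCACTGCCAtgcc
PMF1: cagagcaagcctCACTGCCActgt
The CDC23 site is at chr5:138187770-138187777 on the minus strand in exon 16, the last, 1201 nt after the stop codon. The PMF1 site is at chr1:156239758-156239765 on the plus strand in exon 5, the last, 157 nt after the stop codon. PMF1, a subunit of the MIS12 complex, had 17.0, 13.7 and 15.9 CPM with miR-34a, against 17.8, 24.3 and 23.2 CPM in control, and fell by 0.49 on the log2 scale (edgeR adjusted p = 0.00318). It shares 23.3% of its exonic length with the read-through gene PMF1-BGLAP.

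Of 30 other kinetochore and centromere genes tested, 3 fell and 2 rose. Besides PMF1, SPC25 (-0.40), which sits in the NDC80 complex with NUF2, and CENPX (-0.32), of the inner kinetochore, fell. SPC25 had 37.2, 34.9 and 30.5 CPM with miR-34a, against 43.5, 42.5 and 48.9 CPM in control, so it and NUF2, members of the same complex, lay on opposite sides of no change. Of 6 other checkpoint genes tested, KNTC1, part of the complex that brings dynein to kinetochores, was the 1 that rose (0.22), and none fell. The KNTC1 call was lost without miR-34a 2, miR-34a 3, control 2 or control 3 (edgeR adjusted p = 0.149 to 0.180).

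Of 12 other passenger and cytokinesis genes, 1 fell and 3 rose. ANLN, anillin, which ties the contractile ring to the central spindle, had 258, 268 and 284 CPM with miR-34a, against 194, 161 and 185 CPM in control. It rose by 0.59 on the log2 scale, with the lowest miR-34a library well above the highest control library (edgeR adjusted p = 3.24e-06). RACGAP1, the partner of KIF23 in centralspindlin, had 157, 152 and 152 CPM with miR-34a, against 119.9, 126 and 127 CPM in control, and rose by 0.30 on the log2 scale (edgeR adjusted p = 0.00265). KIF14, a kinesin that localises citron kinase at the midzone, rose as well (0.35). Both subunits of centralspindlin were therefore called higher with miR-34a. The KIF23 call was lost when any library other than control 3 was left out, while that of RACGAP1 held without each library.

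Of 27 other spindle motors and microtubule binders, 2 rose and none fell: KIF18A (0.38), which dampens chromosome movements, and CKAP2L (0.31), a spindle protein. Of 13 cohesin genes, 2 rose and none fell, the acetyltransferase ESCO2 (0.43) and the loader NIPBL (0.35). Of 8 condensin genes, 1 rose and none fell, the core subunit SMC4 (0.31), with 457, 489 and 525 CPM with miR-34a, against 444, 331 and 415 CPM in control. Leaving out control 2 ended the calls of CKAP2L (edgeR adjusted p = 0.0701), NIPBL and SMC4. Leaving out miR-34a 3 also ended those of NIPBL (edgeR adjusted p = 0.0521 to 0.101 over both) and SMC4, and miR-34a 2 that of SMC4 (edgeR adjusted p = 0.0565 to 0.132 over the 3).

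The 14 regulators of mitotic transcription, which act on the promoters described above, had 3 genes that fell and 4 that rose. MYBL2, which encodes B-MYB, had 215, 209 and 199 CPM with miR-34a, against 257, 267 and 269.8 CPM in control, and fell by 0.35 on the log2 scale (edgeR adjusted p = 5.61e-04). NFYC, a subunit of NF-Y, fell (-0.47, edgeR adjusted p = 1.28e-04), and LIN9, a MuvB subunit, rose (0.28, edgeR adjusted p = 0.00875). FOXM1, named here after its value was seen, was the third that fell (-0.23, edgeR adjusted p = 0.0254), and shares 15.9% of its exonic length with ITFG2. FOXM1 and NFYC each hold a 7mer-A1 site. LIN52, RBL1 and RBL2, also named after their values were seen, were the others that rose. Their calls were each lost without miR-34a 3 and without control 3. The FOXM1 call was lost without miR-34a 1, miR-34a 2, control 1 or control 3 (edgeR adjusted p = 0.0752 to 0.119), and that of LIN9 without control 2 (edgeR adjusted p = 0.0552). Shared exonic length also touches SMC4 (18.5% with TRIM59 and 7.18% with IFT80), ANAPC13 (13.0% with CEP63), CKAP2L (9.08% with NT5DC4), NFYC (4.66% with NFYC-AS1) and ANLN (1.30% with MATCAP2). Of 34 DNA replication genes, set beside the mitotic ones for comparison, 7 fell and none rose (20.6% called), with a median log2 fold change of -0.03. Over all tested genes 6.7% fell and 5.38% rose. The difference between the replication list and the mitotic lists was not tested.

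**Figure D5:**
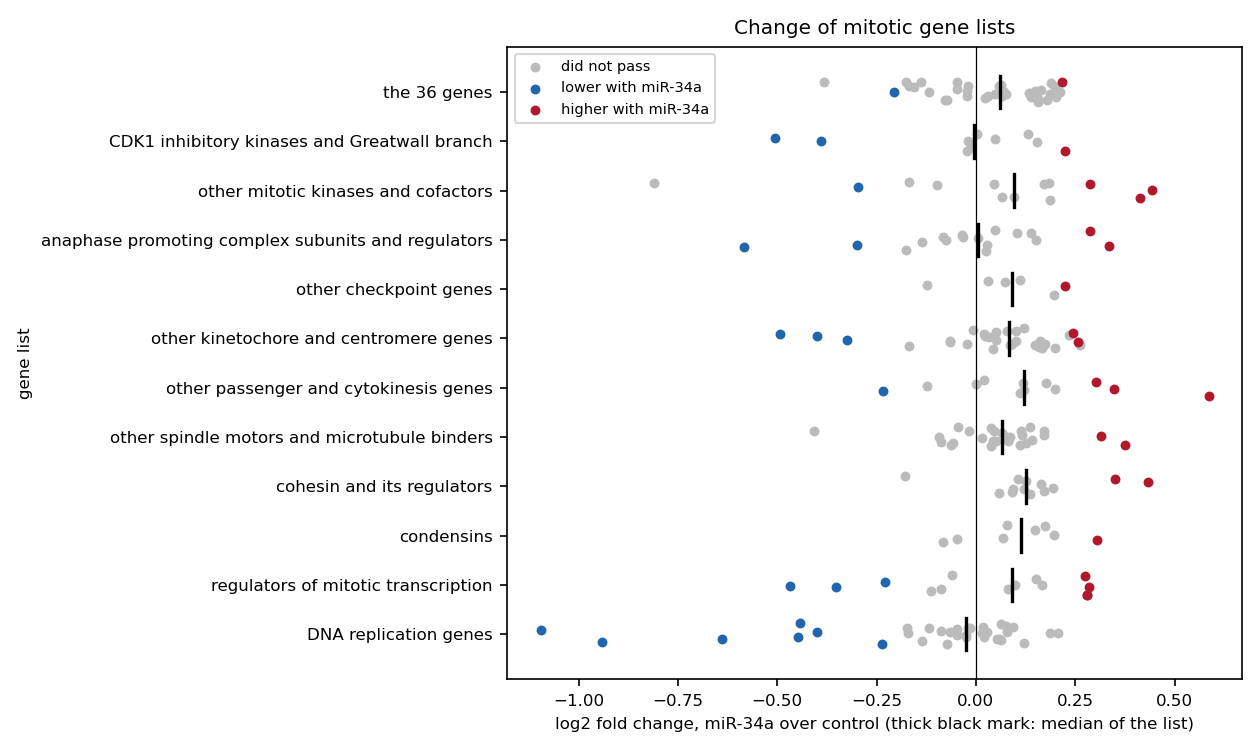
Log2 fold change, miR-34a over control (x axis), of each tested gene (points, with random vertical spread) in the 36-gene set, the 10 wider mitotic lists and the DNA replication list (y axis); blue points fell and red points rose at an adjusted p under 0.05, and thick marks are list medians. The 36 genes lie between -0.38 and 0.22, while the wider lists reach 0.59 (ANLN) and the replication list holds 7 blue points and no red one.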

How the data were processed

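The 6 HEK293T libraries were read as deposited: the authors' table holds raw counts for each Ensembl gene and library, without normalization. The TruSeq v2 kit named in the labels does not mark strand. The submitters' processing notes name GRCh38 as the build, with edgeR 3.42.4, Subread 2.0.3, featureCounts and STAR 2.7.11a. Which annotation release, strand setting and rule for reads on several genes or places the authors used is not given in the sources used here.

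Genes were kept by filterByExpr (minimum count 10, minimum total 15), scaled by TMM (factors 0.981 to 1.016) and tested for the group difference in edgeR 4.0.16 (quasi-likelihood test, R 4.3.3), with no other term in the model. Benjamini-Hochberg adjustment ran over all 17427 tested genes, with a threshold of 0.05, and 95% intervals come from the fit. Libraries of 1 group differed by a chi-square of 8.39 to 15.98 per degree of freedom, so none looked like a copy of another. The test was tried on simulated data.

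The members and lists were chosen with earlier results of these data known. Library values are given for each member that passed in the test or in an alternative with all 6 libraries, the largest change in each direction, the 3 highest and 3 lowest levels per length and each member with a 7mer or 8mer, and for up to 3 called genes per wider list. Other members with library values, and FOXM1, LIN52, RBL1 and RBL2, were named after their values were seen. Exons and 3′ UTRs came from GENCODE release 29 on GRCh38, with the transcript of the longest coding sequence, since that release holds no MANE tags. The alternatives were RLE size factors, library size only, no filter, 1 CPM in 3 libraries, the DESeq2 1.42.0 test, limma-voom (limma 3.58.1), a replicate block and each library left out. The fits against length and GC content were added after seeing the data.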

Additional observations from a re-analysis of the deposited data

How the results depend on the processing

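The number of the 36 genes called lower (1, PLK1) was 0 with no filter and 0 with the replicate block, and 0 to 1 with 1 library left out. The number called higher (1, KIF23) was 4 with scaling by library size only (BUB1, CENPF, KIF23 and NUF2), 4 with no filter (CENPE, CENPF, KIF23 and MKI67), 2 with a filter of 1 CPM in 3 libraries (KIF23 and NUF2), 4 with the DESeq2 test (BUB1, CENPF, KIF23 and NUF2), 0 with the replicate block, and 0 to 4 with 1 library left out. Without control 1, CENPE, CENPF, MKI67 and TOP2A were called higher. Without miR-34a 2, or without miR-34a 3, none of the 36 was called by edgeR; at an unadjusted p under 0.05 there were 1 lower and 6 higher without miR-34a 2, and 1 lower and 8 higher without miR-34a 3. The cause of these moves was not tested. In the wider lists, the 21 genes called higher became 12 without control 2 and 33 without control 1, the lowest and highest counts with 1 library left out. These counts are given without the share of all tested genes called under the same setting. They are therefore not read as moves particular to the 36 genes or to the wider lists.

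Samples with the same replicate number did not deviate together, with correlations of -0.025, 0.022 and -0.076, so the numbers are not taken to pair the samples. With the replicate block, edgeR called none of the 36, the adjusted p of PLK1 was 0.107 and that of KIF23 0.0878, and 2 genes were lower and 6 higher at an unadjusted p under 0.05. In the wider lists it called 10 lower and 18 higher, and among the genes named there the calls of WEE1 (adjusted p = 0.0817), KNTC1 (0.0845) and FOXM1 (0.0682) were lost. The counts with the block are likewise given without the share of all tested genes called under it. They are not read as particular to the 36 genes or to the wider lists.

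Seed matches were found in 8 genes with 6mers counted too and in 0 with 8mers only. The median control level was 33.8 CPM per kb of merged exons and 43.5 CPM per kb of the chosen transcript. The median log2 fold change over the 36 genes stayed between 0.0452 and 0.0733 under every setting run. None of the named genes that passed changed sign under any of these alternatives. Depth limits NUSAP1, under 2 CPM in each library.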
